A study of Mus musculus with 8 samples.

Results

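The major urinary protein (Mup) genes were examined across bulk RNA sequencing libraries of mouse liver, kidney, lung and small intestine. The 8 genes Mup1, Mup2, Mup3, Mup4, Mup5, Mup6, Mup20 and Mup21 were taken by symbol from a table of 52195 gene rows, and all 8 were present. The table also held 13 other numbered Mup rows and 27 rows named Mup-ps, which are annotated pseudogenes, which made 48 Mup rows in all. Each tissue was represented by 2 libraries, labelled replicate 1 and 2, from mice aged 6 to 10 weeks, labelled C57BL/6 and named C57BL/6J in the study's methods, which give them as males that each provided all 4 tissues. The labels name no treatment and no engineered allele. Per the study's text, the libraries of a tissue came from separate mice, while which libraries of different tissues share a mouse is not stated.

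Major urinary proteins are small secreted lipocalins, barrel-shaped carriers that hold volatile pheromones in a central pocket. In male mice the liver releases them into the blood, the kidney filters them, and the urine then carries them as scent marks. Their genes form an array of young duplicates on chromosome 4, and their transcription in the liver is known to depend on pulses of growth hormone, acting through the transcription factor STAT5, and on androgens. Mup20 encodes darcin, the male pheromone that attracts females, while Mup4 and Mup5 are known mainly from secretory glands and nasal tissue of the head.

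All 8 genes lay on chromosome 4 of the GRCm38 build within chr4:59956804-62150863, a stretch of 2194060 bases. Mup4 (ENSMUSG00000041333) and Mup6 (ENSMUSG00000078689) stood at one end, at chr4:59956804-59960710 and chr4:59964294-60007274, and Mup6 was the only one of the 8 on the plus strand. Mup2 (ENSMUSG00000078688) and Mup1 (ENSMUSG00000078683) stood within the central array of near-identical copies, at chr4:60135932-60154289 and chr4:60498012-60501960. Mup5 (ENSMUSG00000058523), Mup20 (ENSMUSG00000078672), Mup3 (ENSMUSG00000066154) and Mup21 (ENSMUSG00000066153) followed at chr4:61831319-61835233, chr4:62050234-62054158, chr4:62083476-62087342 and chr4:62147932-62150863. All 8 were annotated as protein coding, with coding sequences of 537 bases in Mup4 to 555 bases in Mup3.

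How far the 8 transcripts can be told apart decides which of their single values can be read. The second coding exon was 134 bases long in all 8 genes and is printed for each, from GENCODE M21 transcripts on GRCm38 and on the coding strand. Capitals mark the bases that are unlike Mup2.
Mup1, chr4:60501282-60501415, minus strand: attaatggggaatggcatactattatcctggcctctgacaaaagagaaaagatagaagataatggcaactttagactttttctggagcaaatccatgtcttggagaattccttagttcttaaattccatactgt
Mup2, chr4:60139219-60139352, minus strand: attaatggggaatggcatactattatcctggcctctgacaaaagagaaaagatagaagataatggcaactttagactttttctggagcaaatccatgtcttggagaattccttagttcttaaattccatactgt
Mup6, chr4:60003978-60004111, plus strand: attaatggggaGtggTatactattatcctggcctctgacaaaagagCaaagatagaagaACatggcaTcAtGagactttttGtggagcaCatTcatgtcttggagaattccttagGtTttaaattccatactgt
Mup4, chr4:59960039-59960172, minus strand: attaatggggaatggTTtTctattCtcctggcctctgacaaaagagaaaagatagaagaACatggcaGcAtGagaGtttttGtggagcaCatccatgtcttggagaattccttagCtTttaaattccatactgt
Mup20, chr4:62053480-62053613, minus strand: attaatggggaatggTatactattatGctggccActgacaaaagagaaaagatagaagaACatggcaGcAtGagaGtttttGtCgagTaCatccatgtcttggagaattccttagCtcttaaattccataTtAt
Mup5, chr4:61834555-61834688, minus strand: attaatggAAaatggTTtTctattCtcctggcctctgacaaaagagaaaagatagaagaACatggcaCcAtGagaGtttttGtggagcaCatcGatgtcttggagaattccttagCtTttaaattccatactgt
Mup3, chr4:62086800-62086933, minus strand: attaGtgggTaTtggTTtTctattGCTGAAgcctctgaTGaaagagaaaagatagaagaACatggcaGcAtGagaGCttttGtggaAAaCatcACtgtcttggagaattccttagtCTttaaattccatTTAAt
Mup21, chr4:62150195-62150328, minus strand: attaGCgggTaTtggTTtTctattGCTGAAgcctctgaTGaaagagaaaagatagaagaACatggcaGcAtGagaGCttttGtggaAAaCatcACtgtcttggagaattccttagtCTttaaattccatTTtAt
Mup1 and Mup2 were identical over this exon. Mup6, Mup4, Mup20 and Mup5 were unlike Mup2 at 13, 14, 16 and 17 of the 134 bases, while Mup3 and Mup21 were each unlike it at 33 bases and unlike each other at only 2. The exon therefore set out a Mup1 and Mup2 pair, a Mup3 and Mup21 pair, a Mup4 and Mup5 pair unlike at 4 bases, and Mup6 and Mup20. Over whole coding sequences Mup1 and Mup2 were 99.4% identical, Mup3 and Mup21 94.8%, and Mup20 reached 90.8% with Mup2 and 86.7% with Mup3.

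Exon words, which are all stretches of a fixed length in a gene's annotated transcripts, gave a measure of how many reads could be placed in 1 gene. Of the words of 100 bases, 97.8% of those of Mup3, 95.5% of Mup21, 98.7% of Mup5 and all of those of Mup4 and Mup6 occurred in no other annotated gene. Mup20 held 61.2% words of its own, and the other 38.8% were shared with the pseudogene Mup-ps19. In Mup1 and Mup2 only 44.3% and 24.5% of words were their own, and 19.5% and 31.7% were found in more than 10 genes. With words of 50 bases the own share was 86.7% in Mup3, 80.7% in Mup21, 49.5% in Mup20, 38.4% in Mup1 and 21.8% in Mup2. The values of Mup1 and Mup2, and the division between Mup20 and Mup-ps19, are therefore uncertain, and the sources used here do not state how reads that fit several genes were counted.

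**Figure D1:**
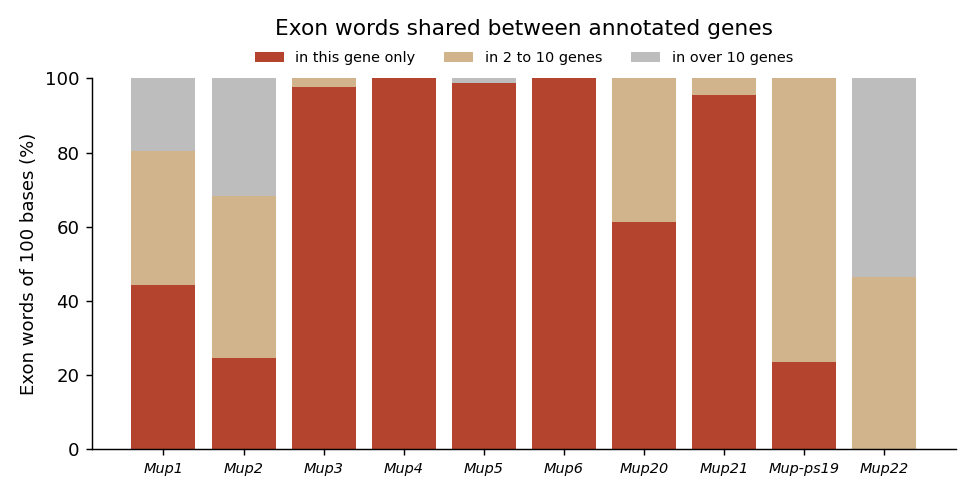
Percent of exon words of 100 bases (y axis) found in 1 gene, in 2 to 10 genes or in over 10 genes of the annotation, for the 8 Mup genes and, at the right, Mup-ps19 and Mup22 (x axis). Mup3, Mup4, Mup5, Mup6 and Mup21 stand near the top of the axis with words of their own, Mup20 reaches 61.2%, and Mup22 has none.

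Liver transcripts of 5 of the 8 genes were among the most abundant in the table, and those of the other 3 were close to absent. Values are FPKM, reads divided by exon length and by library size, so that genes can be compared per length. Mup3 stood at 11980.5 and 14668 FPKM in liver replicates 1 and 2 (mean 13324 ± 1900, SD, n = 2). Mup20 stood at 9203 and 15232 FPKM (mean 12218 ± 4263), and Mup2 at 3071 and 3906 FPKM (mean 3489 ± 590.4). Mup3 and Mup20 exchanged places between the libraries, and both stood above Mup2 in each.

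Mup1 reached 818.3 and 922.3 FPKM (mean 870.3 ± 73.5), and Mup21 444.1 and 793.2 FPKM (mean 618.6 ± 246.9). These neighbours in the order did not overlap, but their gap, from 793.2 to 818.3 FPKM, was smaller than the SD of Mup21. The difference in level between Mup1 and the rest also rests on its exon length of 1584 bases in the annotation, against 928 bases in Mup20 and 677 bases in Mup21, since FPKM divides by that length.

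Mup6, Mup5 and Mup4 were at the edge of detection. Mup6 was listed at 0.873 and 0.775 FPKM in liver, which is 8 reads in each library. Mup5 was listed at 0.118 and 0.419 FPKM, which is 1 and 4 reads, and it also had 0.332 FPKM, or 3 reads, in lung replicate 1. Mup4 was listed at 0 and 0.735 FPKM in liver, which is 0 and 7 reads, and at 0 in all 6 libraries of the other tissues. A count of 0 in liver replicate 1 allows up to 0.355 FPKM of Mup4, taken as 3 reads. All 3 stayed below 1 FPKM in every library, so they did not reach the 2 libraries at 1 FPKM that the test required.

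**Figure D2:**
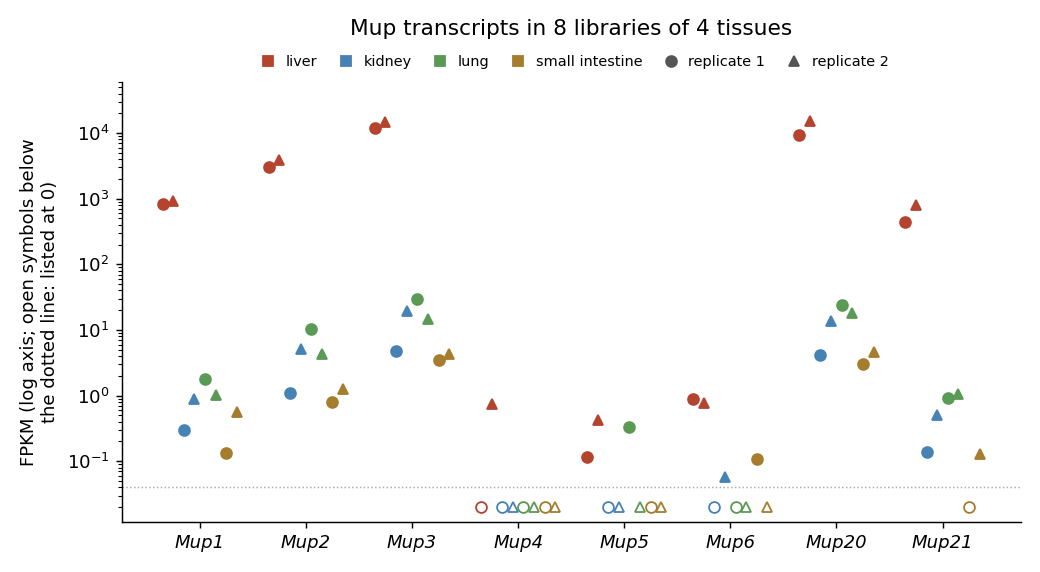
FPKM on a log axis (y) of the 8 Mup genes (x) in the 8 libraries, coloured by tissue, with circles for replicate 1 and triangles for replicate 2. Mup1, Mup2, Mup3, Mup20 and Mup21 lie between 444.1 and 15232 FPKM in liver and at or below 29.5 FPKM elsewhere, while Mup4, Mup5 and Mup6 stay under 1 FPKM in all libraries.

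The promoters of these genes were compared because some high and some near-silent members carry similar ones. RefSeq promoters on GRCm38.p6, from 250 bases before to 50 bases after the start, matched 5 of the 8 genes and are printed with the letters TATATAA in capitals. Mup3, Mup21 and Mup2 were high in liver, and Mup6 and Mup4 were near 0.
Mup3, chr4:62087268-62087567, minus strand: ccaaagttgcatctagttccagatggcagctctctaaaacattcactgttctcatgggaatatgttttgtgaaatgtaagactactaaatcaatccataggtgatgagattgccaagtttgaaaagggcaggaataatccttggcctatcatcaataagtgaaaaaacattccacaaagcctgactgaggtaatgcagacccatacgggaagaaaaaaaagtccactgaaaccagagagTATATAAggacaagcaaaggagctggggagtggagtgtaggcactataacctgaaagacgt
Mup21, chr4:62150792-62151091, minus strand: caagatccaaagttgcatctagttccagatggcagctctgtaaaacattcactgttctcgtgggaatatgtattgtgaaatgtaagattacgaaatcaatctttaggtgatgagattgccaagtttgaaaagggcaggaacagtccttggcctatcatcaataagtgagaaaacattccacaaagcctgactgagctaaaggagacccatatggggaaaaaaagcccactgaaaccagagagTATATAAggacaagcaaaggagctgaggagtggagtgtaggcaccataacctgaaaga
Mup2, chr4:60139807-60140106, minus strand: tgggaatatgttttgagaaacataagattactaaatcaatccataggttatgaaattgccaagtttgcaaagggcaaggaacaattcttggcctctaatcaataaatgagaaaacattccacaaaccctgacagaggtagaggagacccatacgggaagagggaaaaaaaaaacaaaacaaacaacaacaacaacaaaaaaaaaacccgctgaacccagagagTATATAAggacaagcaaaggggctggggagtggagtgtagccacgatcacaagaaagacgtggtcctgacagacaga
Mup6, chr4:60003231-60003530, plus strand: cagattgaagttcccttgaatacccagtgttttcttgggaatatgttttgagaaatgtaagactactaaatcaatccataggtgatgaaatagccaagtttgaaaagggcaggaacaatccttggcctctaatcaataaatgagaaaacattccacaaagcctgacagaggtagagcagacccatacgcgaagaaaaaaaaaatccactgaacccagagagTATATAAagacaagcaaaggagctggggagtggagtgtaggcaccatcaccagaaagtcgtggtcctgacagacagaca
Mup4, chr4:59960618-59960917, minus strand: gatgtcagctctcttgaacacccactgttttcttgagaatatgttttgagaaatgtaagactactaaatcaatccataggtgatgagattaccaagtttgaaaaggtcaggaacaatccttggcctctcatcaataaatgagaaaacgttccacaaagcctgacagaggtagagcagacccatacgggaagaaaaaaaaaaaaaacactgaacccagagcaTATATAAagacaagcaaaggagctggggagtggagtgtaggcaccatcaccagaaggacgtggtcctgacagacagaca
Each of the 5 held TATATAA once, against 3.24% of 32851 promoters of that length that held it on either strand; the letters were chosen after the sequences were seen. None held TTCNNNGAA, the letters of a STAT5 site, on either strand, and 8.30% of all promoters did. The near-silent Mup4 and Mup6 were 92.3% identical to each other over the bases that could be aligned. They were 88.3% and 88.7% identical to Mup3, the highest of the 8 in liver replicate 1, and 81.0% and 81.7% to Mup2. Mup3 and Mup21, which differed in liver level, were 93.3% identical.

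Summed over the 8 genes, the family reached 25518.5 FPKM in liver replicate 1 and 35523 FPKM in liver replicate 2. Those sums were 4.09% and 5.69% of all FPKM in their libraries, a mean of 4.89% ± 1.13 (SD, n = 2). Counted as reads, recovered from FPKM and exon length, the share was 2.70% of 9164187 reads (95% exact binomial interval 2.69 to 2.71) and 3.70% of 10324317 reads (3.69 to 3.71), and these intervals cover counting error only. A read that fits several Mup genes may have been counted in several rows. In that case the sums and shares are too high and the intervals too narrow. The share was higher in replicate 2 on both scales, by more than these intervals.

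With mitochondrial genes and their nuclear copies on chromosome 1 left out, only albumin (Alb), the main plasma protein, stood above the 8 genes' sum in liver replicate 1, and no gene did in replicate 2. Above the highest single Mup gene stood the same 9 rows in both libraries. Alb was one of them, at 34646 and 29371 FPKM, 4 were genes of the mitochondrial chromosome, and 4, Gm29216, Gm10925, Gm28437 and Gm28661, were nuclear copies of mitochondrial genes. Within the sum, Mup3 gave 46.9% and 41.3% of FPKM and Mup20 36.1% and 42.9%. Together they made up most of the sum of the 8 genes in both libraries.

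The sum over all 48 Mup rows was 52919 and 71814 FPKM, or 8.47% and 11.5% of the libraries. All 13 other numbered genes lay between 218.2 and 5363 FPKM in liver, and none exceeded 14.1 FPKM elsewhere. The row Gm21320, which RefSeq lists as an older symbol of Mup22, stood at 4996 and 6337 FPKM and was not counted among the 48. None of its exon words of 100 bases was its own, and 92.4% were shared with Mup10. Its row still held 39417 and 56332 reads in liver, so reads of up to 100 bases counted there would also fit another gene. Whether such reads were counted in several rows is not stated, so the sum over all Mup rows may hold the same reads repeatedly. Of the 27 Mup-ps rows, 26 stayed at or below 34.2 FPKM and 4 were listed at 0 in both liver libraries. Mup-ps22 is annotated on chromosome 11 and the others on chromosome 4.

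Mup-ps19 was the exception, at 4181 and 7375 FPKM. It shares 76.7% of its words of 100 bases with Mup20, and its level per length cannot be separated from that of Mup20 where the words are shared. Words shared by both cannot be assigned to either.

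**Figure D3:**
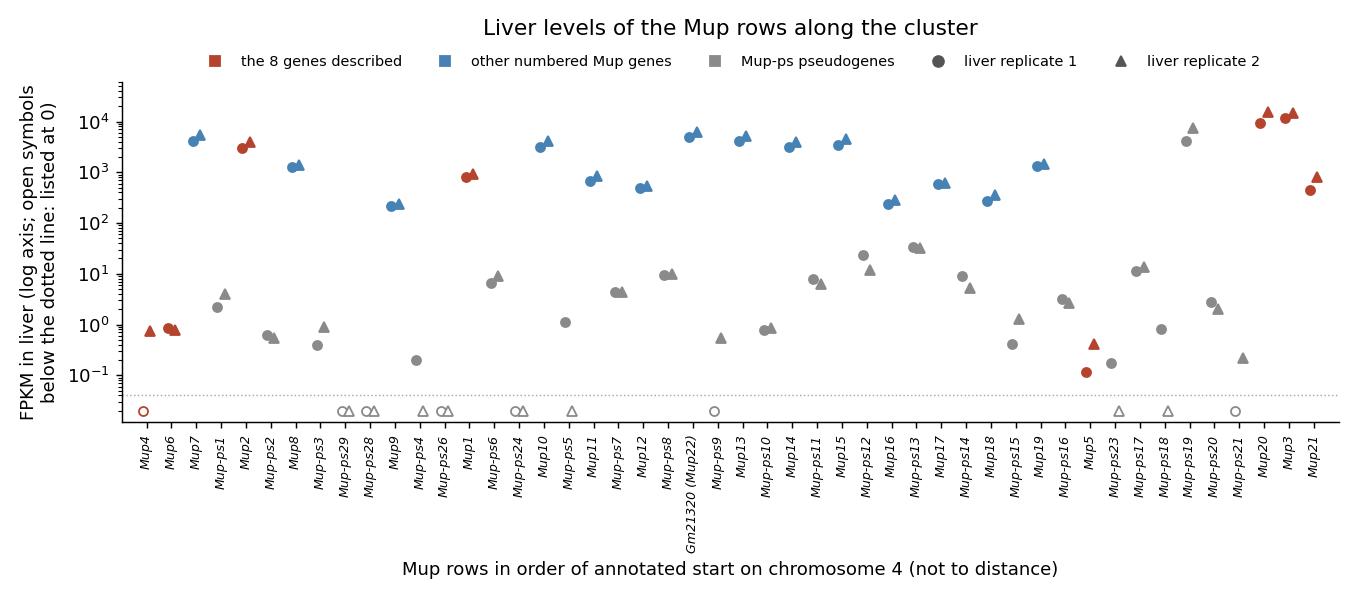
FPKM in the 2 liver libraries on a log axis (y) for the Mup rows annotated on chromosome 4 and the Mup22 row, in the order of their annotated starts and not to distance (x). Near-silent genes at both ends of the central array (Mup4, Mup6 and Mup5) sit beside numbered genes at 218.2 FPKM or more, and Mup-ps19 is the only pseudogene above 34.2 FPKM.

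Liver levels were set against the average of kidney, lung and small intestine in 1 limma fit over all genes on log2(FPKM + 1), where a call required a Benjamini-Hochberg adjusted p under 0.05 and a log2 difference over 1. All 5 Mup genes that passed the filter were called higher in liver, against 6.56% of the 16328 genes tested that were called higher and 32.7% that were called lower. Mup21 reached 1 FPKM in only 1 library outside the liver, so it entered the test through liver and its direction was set by the filter. Each library of liver stood above every library of the other tissues for each of them. For Mup3 the kidney libraries held 4.72 and 19.2 FPKM, the lung libraries 29.5 and 14.8 FPKM, and the small intestine libraries 3.50 and 4.30 FPKM. Its difference was 10.30 (SE 0.45, adjusted p = 1.46e-06 by limma) on the log2 scale, and its lower liver value was 405.6 times the highest value elsewhere.

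Mup20 was listed at 4.17 and 13.8 FPKM in kidney, 24.4 and 18.3 FPKM in lung, and 2.99 and 4.57 FPKM in small intestine. Its log2 difference was 10.25 (SE 0.39, adjusted p = 7.09e-07 by limma). Mup2 had 1.08 and 5.19 FPKM in kidney, 10.4 and 4.28 FPKM in lung, and 0.800 and 1.26 FPKM in small intestine, and differed by 9.82 (SE 0.43, adjusted p = 1.48e-06 by limma). In all 3 genes lung replicate 1 was the highest and small intestine replicate 1 the lowest of the 6 libraries, apart from liver.

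Mup1 had 0.294 and 0.875 FPKM in kidney, 1.81 and 1.02 FPKM in lung, and 0.135 and 0.558 FPKM in small intestine. Its log2 difference was 8.997 (SE 0.22, adjusted p = 8.42e-08 by limma). Mup21 had 0.138 and 0.512 FPKM in kidney, 0.908 and 1.07 FPKM in lung, and 0 and 0.130 FPKM in small intestine, with a log2 difference of 8.73 (SE 0.23, adjusted p = 1.29e-07 by limma). Differences of these low genes are smaller on this scale because 1 FPKM was added to each value. The median of all genes in this contrast was -0.72, so relative to it the 5 genes ranged from 9.45 in Mup21 to 11.03 in Mup3.

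The summed FPKM of the 8 genes differed by 10.39 on the log2 scale between liver and the other libraries. An exact permutation test over the 28 choices of 2 of 8 libraries gave a two-sided p = 0.0357, the smallest that these choices allow. The test treated the libraries as exchangeable, although libraries of different tissues share mice in a way that is not stated. After median-of-ratios scaling, which divides each library by its median ratio to the others, the background changed to 13.3% of genes called higher and 14.6% lower, and the higher calls from 16.7% to 47.7% of all calls. Under that scaling Mup6 also passed the filter and was called higher, by 1.22, but it reached 1 FPKM only in the liver libraries, so that its direction was set by the filter.

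Outside the liver the 8 genes summed to 10.4 and 39.7 FPKM in kidney, 67.4 and 39.4 FPKM in lung, and 7.54 and 10.8 FPKM in small intestine. Lung and small intestine did not overlap, while kidney spread from near the small intestine values to those of lung replicate 2. Between kidney and lung only Mup20 was called, lower in kidney by 1.34 (adjusted p = 0.0358 by limma), where 50.3% of all genes were called in either direction. The median of all genes there was -0.81, which leaves -0.53 for Mup20, and after median-of-ratios scaling its difference was -0.29. Between kidney and small intestine no Mup gene was called, where 29.5% of all genes were, and the largest difference was 1.14 in Mup3 (adjusted p = 0.133 by limma). With kidney replicate 1 left out, Mup2, Mup3 and Mup20 were called higher in kidney than in small intestine.

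Between lung and small intestine Mup20, Mup3 and Mup2 were called higher in lung, by 2.23, 2.17 and 1.95 (adjusted p = 0.00466, 0.0105 and 0.0138 by limma). Of all genes 30.6% were called higher in lung, and their median difference was 0.57. Mup21 and Mup1 differed by 0.90 and 0.84, under the limit of 1. After median-of-ratios scaling no Mup gene was called between lung and small intestine or between kidney and lung, so these calls rest on the scaling. The sums after it were 37.1 and 20.8 in lung and 6.82 and 10.3 in small intestine, which still did not overlap, while kidney, at 10.1 and 55.2, overlapped both. Mup20 then differed by 1.47 between lung and small intestine (adjusted p = 0.0740 by limma). That scaling also moved the share of all calls that were higher in the first tissue, from 17.6% to 50.1% between kidney and lung, from 36.3% to 47.9% between kidney and small intestine, and from 75.2% to 48.3% between lung and small intestine. Leaving out lung replicate 1 or small intestine replicate 1 left only Mup20 called between lung and small intestine, and leaving out kidney replicate 1 or lung replicate 1 left none between kidney and lung. Without lung replicate 2 Mup20 was not called between kidney and lung either, and Mup2 was, so the Mup20 call was lost in 3 of the 4 fits that left out a library of these tissues.

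The low levels outside the liver were set beside those of other liver transcripts. Expressed per 1000 FPKM of the liver mean, the sum of the 8 genes stood at 0.341 and 1.30 in kidney, 2.21 and 1.29 in lung, and 0.247 and 0.354 in small intestine. Alb stood at 0.485 and 1.27, 2.15 and 1.22, and 0.338 and 0.404 in the same libraries. The median of 15 hepatocyte markers was 0.485 and 1.68 in kidney, 2.30 and 1.34 in lung, and 0.445 and 0.404 in small intestine. The Mup level lay within the range of the single markers in each of the 6 libraries, but toward its lower end in some: 2 and 3 of the 15 markers stood below it in kidney, 6 and 7 in lung, and 1 and 5 in small intestine.

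None of the 15 markers was at 0 outside the liver. Their summed level was 54549 and 49655 FPKM in liver, 47.2 and 85.7 FPKM in kidney, 117.1 and 68.0 FPKM in lung, and 21.4 and 22.1 FPKM in small intestine. The highest marker in both kidney libraries, named after its values were seen, was Hpd, an enzyme of tyrosine breakdown, at 23.6 and 16.0 per 1000 of its liver mean. Fga, Fgg, Apoh and Hpd, 4 of the 15, were higher in both kidney libraries than in both lung libraries, which the Mup sum was not. What part hepatocyte RNA had in the Mup values of these libraries was not tested. In bulk tissue, fewer cells that express a gene and less RNA of it per cell cannot be told apart.

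**Figure D4:**
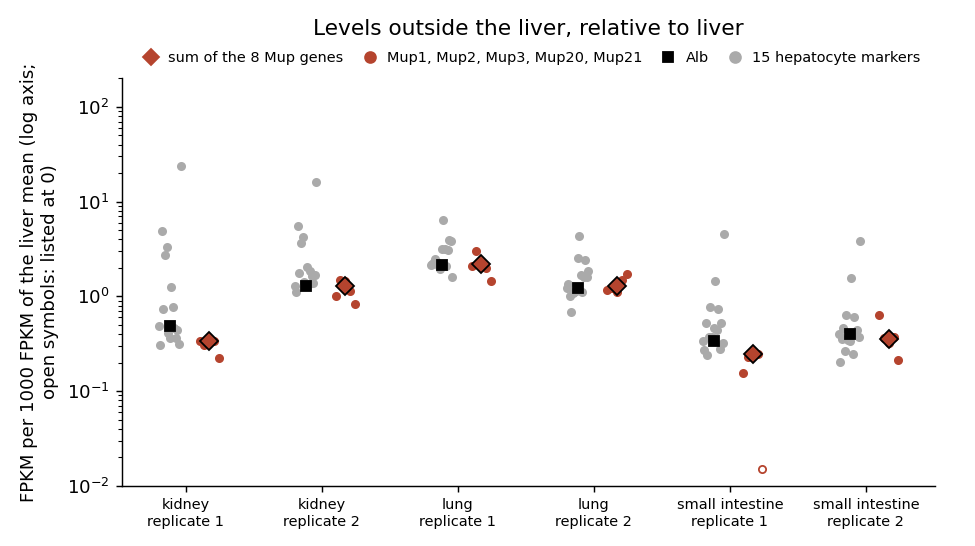
FPKM per 1000 FPKM of the liver mean on a log axis (y) in the 6 libraries of kidney, lung and small intestine (x), with symbols for the sum of the 8 Mup genes, the single Mup genes, Alb and the hepatocyte markers. The Mup sum runs from 0.247 in small intestine replicate 1 to 2.21 in lung replicate 1 and lies within the range of the markers in each library, with 1 of 15 markers below it in small intestine replicate 1 and 7 in lung replicate 2.

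The makeup of the family was compared by the shares of its reads, with no test of sameness. Mup3 gave 47.3% and 42.3% of the 8 genes' reads in liver. Elsewhere its share lay between 38.7% of 507 reads in lung replicate 2 (95% exact binomial interval 34.4 to 43.1) and 48.8% of 728 reads in kidney replicate 2 (45.1 to 52.5). Mup20 gave 31.6% and 38.2% in liver and between 30.5% in kidney replicate 2 (27.2 to 34.0) and 41.6% in lung replicate 2 (37.3 to 46.0) elsewhere. Mup2 gave 15.2% and 14.1% in liver and between 13.2% in kidney replicate 1 (9.18 to 18.3) and 19.4% in lung replicate 1 (16.5 to 22.5) elsewhere. These intervals cover counting error only and not the difference between mice. With 74 reads in small intestine replicate 1 and 130 in replicate 2, a different makeup there was not detectable unless it was large.

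The liver libraries differed from each other by unequal amounts across the family. Mup1, Mup3 and Mup2 were 1.13, 1.22 and 1.27 times as high in replicate 2 as in replicate 1, and the 13 other numbered genes lay between 1.06 and 1.30. Mup20 stood at 1.66 times (95% exact interval of the reads 1.64 to 1.67) and Mup21 at 1.79 times (1.71 to 1.87), with Mup-ps19 at 1.76 times (1.73 to 1.79). The intervals of Mup20 and Mup21 lay above those of all other numbered genes. Over the 396 genes with a mean of at least 100 FPKM in liver, the log2 ratio ran from -0.39 at the 5th to 0.39 at the 95th percentile, against 0.73 in Mup20 and 0.84 in Mup21. Of the 396 genes 15 had a larger absolute ratio than Mup20, Mup21 and Mup-ps19 among them. This is a difference between 2 libraries and has no further replicate.

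**Figure D5:**
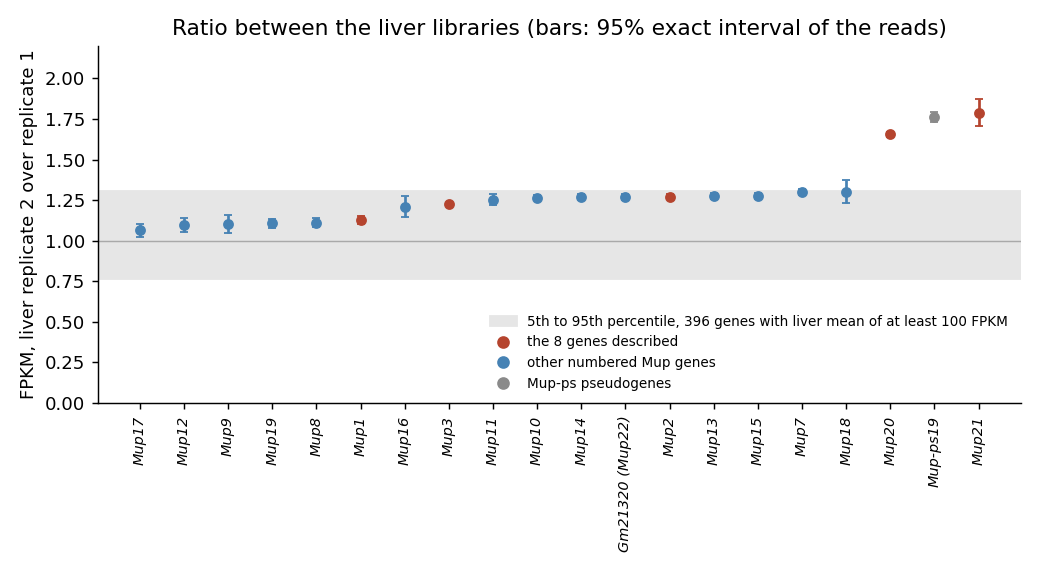
Ratio of FPKM in liver replicate 2 to replicate 1 (y) for each Mup row of at least 100 FPKM in both (x), with bars for the 95% exact interval of the reads and a grey band for the 5th to 95th percentile of 396 abundant liver genes. Mup20, Mup-ps19 and Mup21 lie between 1.66 and 1.79, above the band, and the other rows lie at or below 1.30.

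The growth hormone and STAT5 pathway was described from a list of 17 of its regulators and targets, of which 15 were tested. In liver 5 of the 15 were called higher and 3 lower, against 6.56% and 32.7% of all genes, with a median difference of 0.44 against -0.72 over all genes. The transcription factors Cebpa and Hnf4a, which drive many hepatocyte genes, had the highest liver levels of the list, at 67.1 and 75.3 FPKM and at 61.5 and 60.3 FPKM. They were called higher by 1.99 and 1.61 (adjusted p = 9.89e-06 and 0.000247 by limma). Hnf4a was not highest in liver, since it stood at 93.8 and 62.2 FPKM in kidney and 58.7 and 79.3 FPKM in small intestine, against 0.764 and 0.350 FPKM in lung. Ghr, the growth hormone receptor and another of the 5, stood at 28.9 and 32.4 FPKM in liver and 45.5 and 34.1 FPKM in kidney. Igf1, a growth hormone target that the liver secretes, was named after its values were seen and stood at 42.1 and 46.4 FPKM and was higher by 4.48 (adjusted p = 2.93e-07 by limma).

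Against the list, the kinase Jak2 and the STAT5-induced feedback inhibitors Socs2 and Cish were lower in liver. Jak2 had 1.63 and 1.56 FPKM there and fell by 1.86 on the log2 scale, Socs2 0.618 and 0.935 FPKM with 1.53, and Cish 0.170 and 0.272 FPKM with 1.22. Cish passed the filter through lung, so its direction was set by it. Of 13 genes known as male-biased in mouse liver, 12 were tested and 11 were called higher in liver, against 6.56% of all genes. Elovl3, C4a and Serpina4-ps1 passed the filter through liver alone, so their direction was set by it. The highest of the 11 were the glutathione transferase Gstp1 at 1360 and 1841 FPKM and the cytochrome P450 Cyp2d9 at 841.5 and 832.6 FPKM. Ugt2b38, a glucuronosyltransferase, was among the 11 at 47.9 and 65.6 FPKM in liver, although it stood at 493.1 and 624.2 FPKM in kidney. Nat8, an acetyltransferase, was the tested one that was not called, at 17.5 and 16.6 FPKM in liver with a difference of -0.74 (adjusted p = 0.00489 by limma).

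Of 14 genes known as female-biased in liver only 4 were tested, and none of the 14 exceeded 2.07 FPKM in a liver library. Cyp17a1, a steroid hydroxylase, had 2.07 and 1.52 FPKM but passed the filter through liver alone, so its higher call was set by it, while Prom1 was called lower. Cyp3a44, a cytochrome P450, had the next highest mean in liver, at 0.667 and 0.543 FPKM. The male-biased genes spread widely in liver, from Moxd1 at 0.102 and 0.0606 FPKM, which was not tested, to Gstp1, and all of them stood below Mup20 at 9203 and 15232 FPKM. In the wider lipocalin family, 25 genes were listed, 23 were in the table and 10 were tested. Of the 10 tested, 7 were called higher in liver and 1, Lcn2, lower, against 6.56% and 32.7% of all genes. The untested ones in the table stayed at or below 1.17 FPKM in both liver libraries. Orm2, among the 7, passed the filter through liver alone. Rbp4, the plasma carrier of retinol, stood at 1618 and 1652 FPKM and Ambp at 1280 and 1144 FPKM, less than the level of Mup2.

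Around the array, 30 other protein-coding genes are annotated near the outermost of the 8 Mup genes, and 21 were tested. Only Ambp, the precursor of the lipocalin alpha-1-microglobulin, was called higher in liver, by 8.51, and 8 of the 21 were called lower, which is near the 6.56% and 32.7% of all genes. Rnf183, among the 8, passed the filter through kidney alone, so its direction was set by it. Alad, an enzyme of haem synthesis, was the next highest in liver, at 41.5 and 41.1 FPKM. The median difference of these neighbours was -0.89, against -0.72 over all genes.

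Among 376 genes outside the family with a mean of at least 100 FPKM in liver, the 5 whose log2 levels over the 8 libraries were most like the Mup sum were Alb, Serpina3k, Ahsg, Apoa2 and Hpx, all secreted plasma proteins. Their Pearson correlations were between 0.997 and 0.998. The points are 8 libraries in which liver stands apart from all others, so that any gene restricted to liver would score high.

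The libraries held from 9164187 reads in liver replicate 1 to 21444675 in kidney replicate 1. The 15 hepatocyte markers were all called higher in liver, against 6.56% of all genes. Of the 15 markers of kidney, lung and small intestine 14 were called lower there, against 32.7% of all genes. Of the hepatocyte markers 4 passed the filter through liver alone, and 5 of the others through 1 other tissue, so the direction of these was set by it. The exception was Fabp2, the intestinal fatty acid carrier, which stood at 47.5 and 55.1 FPKM in liver. The liver contrast does not check the kidney, lung and small intestine labels against each other. Napsa, a marker listed for lung, stood at 416.0 and 517.6 FPKM in kidney against 98.8 and 90.8 FPKM in lung. No marker list as a whole went against a tissue label.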

How the data were processed

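Whole liver, kidney, lung and small intestine of mice labelled C57BL/6, in the methods C57BL/6J, were measured by sequencing of polyadenylated RNA in 2 libraries a tissue. The authors mapped reads with STAR 2.5.3a to an Ensembl release of the mouse genome and deposited FPKM, made with the fpkm function of DESeq2 and normalized to library size. The counter, its use of strand and its treatment of reads that fit several genes are not given in the sources used here.

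Values were taken as deposited. Exon lengths, positions and transcripts came from GENCODE M21, and 51844 of 52195 symbols matched it. FPKM times exon length gave whole reads, within 0.02 of a read, for 94.5% to 96.1% of values of up to 50 reads, which set the library totals of 9164187 to 21444675 reads. A value of 0 was read as at most 3 reads. limma 3.58.1 in R 4.3.3 was fitted, with a trend, to log2(FPKM + 1) of all 8 libraries for the 16328 genes with at least 1 FPKM in 2 libraries, and p-values were adjusted by Benjamini-Hochberg over all of them. The scripts were tested on simulated data. Sums were compared by an exact permutation test (SciPy 1.17.1), and coding sequences, in place of proteins, were aligned with Biopython 1.88.

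Genes named were the 8 Mup genes, the other Mup rows, the 5 genes most like the sum, genes above the highest Mup gene in liver, and from each list the 2 highest in liver and those that went against it. The genes and lists (hepatocyte, kidney, lung and intestine markers, growth hormone and STAT5 pathway, male-biased and female-biased liver genes, lipocalins, neighbours) were chosen with earlier results of these data known. Alternatives were another pseudocount, no filter, 2 scalings, no trend, a replicate block, each library left out and other sums; limma-voom on the recovered reads and the addition of the Mup22 row were chosen after seeing the data. The libraries of a tissue came from separate mice per the study's text, but whether a number marks the same mouse across tissues is not stated. The deviations of same-numbered libraries correlated at -0.217 to 0.0528 between tissues, so the numbers were not taken as pairs.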

Additional observations from a re-analysis of the deposited data

How the results depend on the processing

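The liver count stayed at 5 Mup genes under the alternatives run, other than 6 under median-of-ratios scaling, and the log2 differences of the 5 ran from 8.31 to 11.30, with a largest adjusted p of 9.53e-05 by limma. Between kidney and lung the count of 1 became 2 with a pseudocount of 0.1, 3 with the same sum in each library, and 0 with no filter, with median-of-ratios scaling and with limma-voom, and it ran from 0 to 3 with a library left out. Between kidney and small intestine it ran from 0 to 3 with a library left out. Between lung and small intestine the count of 3 became 5 with a pseudocount of 0.1, 5 with the same sum in each library and 0 with median-of-ratios scaling, and it ran from 1 to 4 with a library left out. The summed level differed by 10.11 to 10.71 on the log2 scale with a library left out and by 11.40 with median-of-ratios scaling, and with either liver library left out, at 10.63 and 10.15, the exact permutation p was 0.143, the smallest that 7 choices allow. The mean liver share of 4.89% became 8.40% without mitochondrial genes and their copies, 9.99% over every Mup row and 3.20% of reads, and ran from 4.09% to 5.69% with a liver library left out. With the replicate block the counts were 5, 1, 0 and 3, as without it, and no call changed. Of 142 recomputed values 123 kept their direction and side of the threshold or, for counts and shares, stayed within the limit set for them, which does not say that the same genes were called, and the cause of the others was not tested. Depth limits Mup4, Mup5 and Mup6, which had at most 8 reads in any library.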

Other observations

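Of the 13 listed male-biased genes, 8 were higher in liver replicate 2 than in replicate 1 and 5 were lower. The median log2 ratio was 0.05 over the 16328 genes tested and -0.01 over the 396 abundant ones. A near even split is therefore the background of this count. Every numbered Mup gene of at least 100 FPKM in both liver libraries was higher in replicate 2, at 1.06 to 1.79 times. Selenbp2, Ugt2b38, Cyp7b1 and Gstp1 stood at 1.52, 1.37, 1.36 and 1.35 times their replicate 1 level, while Cyp2d9, Cyp4a12a and Cyp4a12b stood at 0.989, 0.888 and 0.682 times. Elovl3, an elongase of fatty acids, stood at 113.2 and 233.0 FPKM, a ratio of 2.06, and Hsd3b5, a steroid dehydrogenase, at 108.3 and 204.5 FPKM, a ratio of 1.89. The pseudogene Serpina4-ps1 had 38.0 and 97.8 FPKM, a ratio of 2.57. Most of these genes were named after their values were seen, and with 1 library on each side none of these ratios has a replicate.

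Among the 396 abundant liver genes, those that fell furthest from replicate 1 to replicate 2, also named after their values were seen, were Cyp4a10 at 365.5 and 108.9 FPKM and Cyp4a14 at 177.7 and 53.8 FPKM, both fatty acid hydroxylases. Hamp, which encodes the iron hormone hepcidin, stood at 374.5 and 1008 FPKM. Of the 12 Mup-ps rows that passed the filter, 11 reached 1 FPKM in liver alone, so their direction was set by the filter.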
